A study of Mus musculus with 5 samples.

Results

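The nuclear genes for the proteins of the mitochondrial ribosome were examined in brown adipose tissue (BAT) of cold-exposed mice with and without ATF4 in thermogenic adipocytes. Members were the protein-coding genes whose symbols start with Mrpl or Mrps and a digit, and 78 of 52022 genes met this rule, 49 named for the large subunit (Mrpl) and 29 for the small subunit (Mrps). Another 5 genes with such symbols are annotated as pseudogenes and were not members. The mitochondrial ribosome translates the messenger RNAs of the mitochondrial genome, which code for subunits of the respiratory chain and of the ATP synthase. Its ribosomal RNAs come from that genome, whereas its proteins are made from nuclear genes in the cytosol and imported. BAT is dense in mitochondria, and its heat production through UCP1 depends on a working respiratory chain. ATF4 is a transcription factor of the integrated stress response, which is known to be switched on in many cells when mitochondrial translation is impaired.

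ATF4 BKO mice carried floxed Atf4 alleles (Atf4 fl/fl) and a Cre recombinase driven by the Ucp1 promoter, so that the gene is deleted in cells that express Ucp1 and is left in the other cells of the depot. WT mice were Atf4 fl/fl littermates without Cre. All were labelled as young adult males (the counts of 1 library go against this) and were on the C57Bl/6J background, fed freely, acclimated to thermoneutrality and then kept in the cold for 3 days. Stranded mRNA libraries of 3 ATF4 BKO and 2 WT samples were compared, each taken here as 1 mouse. There was no group kept warm, so the values describe the difference between genotypes in the cold and not a response to cold.

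Total estimated counts ranged from 24698337 to 32452751 per library. The targeted gene, Atf4, had 22.1, 40.5 and 16.4 TPM (a transcript's share of the library, corrected for its length) in the ATF4 BKO mice and 227 and 188 TPM in the WT mice. Its log2 fold change (ATF4 BKO minus WT) was -2.82 ± 0.34 (SE), with an adjusted p of 0.671 in edgeR's quasi-likelihood test and 9.72e-12 in DESeq2. Ucp1 stood at 8039 to 9754 TPM in ATF4 BKO and at 8372 and 10070 TPM in WT mice, so the tissue label was borne out in every library. A pair of libraries stood apart. ATF4 BKO 1, labelled male, held 4598 Xist counts, where each other library had 7 or fewer, and WT 2 had a mean level of 16 skeletal muscle markers of 6.43 log2 CPM (CPM is the count relative to the library's total, not corrected for length), against 2.30 in WT 1 and -1.65 to 0.57 in ATF4 BKO mice. These markers took up 0.227% of TPM in WT 2, 0.0153% in WT 1 and 0.0070 to 0.0075% in ATF4 BKO mice. Since BAT was sequenced in bulk, fewer cells of a type and less RNA per cell cannot be told apart.

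Transcripts of the mitochondrial ribosome were abundant and evenly detected. Every member had between 394 and 6497 estimated counts in every library, and all 78 passed the count filter without help from one genotype. The highest mean level was that of Mrps21 (419 TPM over the 5 mice), followed by Mrpl42 (378), Mrps36 (330), Mrpl30 (307) and Mrpl20 (284). These 5 were also the highest members in each of the 5 libraries. At the other end stood Mrpl1 (14.0 TPM), Mrps30 (19.6) and Mrps10 (20.4). Although the proteins are built into the ribosome mostly as single copies, the highest transcript level was 30.0 times the lowest. Most members lay closer together, with 57 of 78 within 2-fold of the median of 78.1 TPM. The order of the genes was nearly fixed, since the lowest Spearman rho between any pair of libraries was 0.969 across the 78 genes. Each transcript had the same length in every library, and the genes are not independent replicates. Mrps36 carries the small subunit's name, but its protein is now known as a part of the alpha-ketoglutarate dehydrogenase complex.

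**Figure D1:**
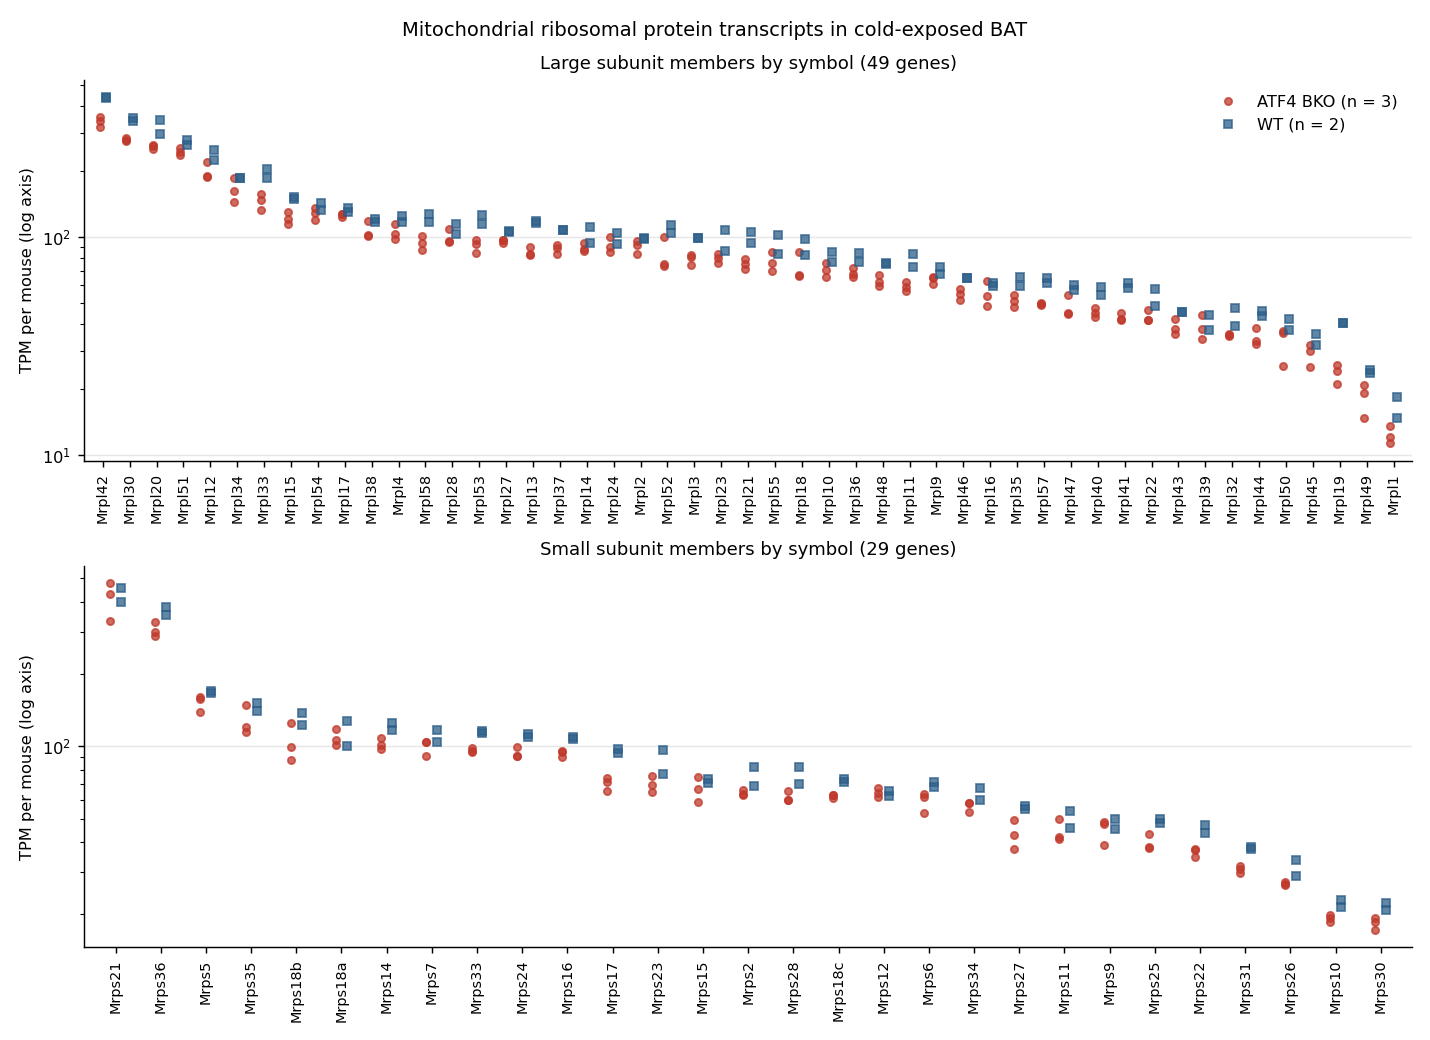
TPM of each member (log axis) in each of 3 ATF4 BKO mice (circles) and 2 WT mice (squares), sorted by mean level, with the large subunit above and the small subunit below. The order from Mrps21 and Mrpl42 down to Mrpl1 was alike in all 5 mice, and most circles lie at or below the squares.

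Summed over the 78 members, transcript levels were 6894, 6961 and 7350 TPM in the ATF4 BKO mice and 8403 and 8344 TPM in the WT mice. The ATF4 BKO mean (7068 ± 246 TPM, SD, n = 3) was 84.4% of the WT mean (8374 ± 41.7 TPM, SD, n = 2), and the genotypes did not overlap. By symbol, the large subunit summed to 4354, 4487 and 4643 TPM against 5505 and 5337 TPM, which is 82.9% of WT. The small subunit summed to 2540, 2475 and 2706 TPM against 2898 and 3007 TPM, or 87.2% of WT. Both subunits were therefore lower in each ATF4 BKO mouse than in either WT mouse on the TPM scale.

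TPM is a share of all transcripts, and another group of transcripts moved in the opposite direction. The 13 messenger RNAs of the mitochondrial genome took up 33.7, 27.2 and 30.6% of all TPM in the ATF4 BKO mice and 21.0 and 22.9% in the WT mice. With the genes of the mitochondrial genome left out and TPM rescaled, the members summed to 10780, 9971 and 11000 TPM in ATF4 BKO and to 11170 and 11240 TPM in WT mice, which is 94.5% of WT and still without overlap. On the scale of TMM-normalized CPM, which sets the bulk of genes equal between libraries, the sums were 4674, 4103 and 4835 CPM against 4846 and 4610 CPM, or 96.0% of WT, and the genotypes overlapped. The lower sum in ATF4 BKO BAT was thus 15.6%, 5.5% and 4.0% on these 3 scales. The CPM keep the genes of the mitochondrial genome and are not corrected for length, so they are not a further step from the rescaled TPM.

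**Figure D2:**
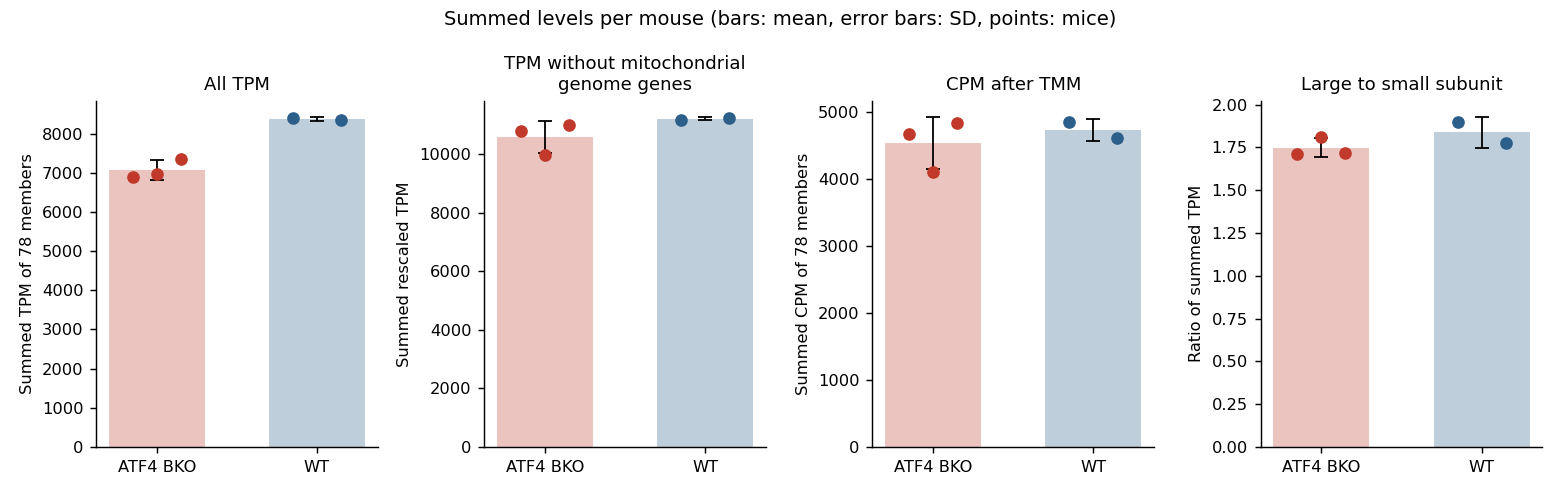
Summed levels of the 78 members per mouse as TPM, as TPM rescaled without the genes of the mitochondrial genome and as CPM after TMM, with the ratio of large to small subunit TPM at the right (bars, mean; error bars, SD; points, 3 ATF4 BKO and 2 WT mice). The genotypes are apart in the first panel (84.4% of WT) and overlap in the CPM panel (96.0% of WT) and in the ratio.

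The balance between the subunits overlapped between genotypes. The ratio of large to small subunit TPM was 1.71, 1.81 and 1.72 in ATF4 BKO and 1.90 and 1.77 in WT mice. Symbols do not give the place of every protein, since Mrps18a and Mrps30 code for proteins of the large subunit. With these counted as large and Mrps36 left out, the ratio was 2.11, 2.24 and 2.13 in ATF4 BKO and 2.32 and 2.22 in WT mice, and the highest ATF4 BKO value again lay above the lower WT value. Within the range between mice, neither genotype stood out for an excess of either subunit.

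No member passed the threshold of an adjusted p of 0.05 in either edgeR or DESeq2, in which the lowest adjusted p of a member was 0.911 and 0.900. Over all 16450 genes tested, edgeR called 0.00608% and DESeq2 0.736%. At an unadjusted p under 0.05, edgeR listed 1 member (Mrpl41) and DESeq2 listed 0, beside 5.23% of all genes in edgeR. Estimates for members spanned -0.34 (Mrpl41) to 0.14 (Mrps18a) on the log2 scale, and 9 of 78 were beyond 0.2 in size. The 95% confidence intervals of all 78 lay within 1 log2 unit of 0, from a lowest bound of -0.74 (Mrpl49) to a highest of 0.52 (Mrps15), with a median half-width of 0.34. A 2-fold difference of a member between genotypes was thus outside its interval in each case, whereas differences of the size seen here were not detectable with 3 and 2 mice.

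Estimates leaned to one side. Of the 78 members, 55 had a log2 fold change below 0, beside 48.8% of all genes. The median was -0.057 over the members, -0.099 over the large subunit (36 of 49 below 0) and -0.044 over the small subunit (19 of 29 below 0), beside 0.0077 over all genes. The members' median was 0.013 without ATF4 BKO 2, -0.17 with library totals in place of TMM (all genes -0.099) and -0.26 with the mean of the muscle markers as a covariate. This covariate was higher in both WT mice than in any ATF4 BKO mouse, so its part and that of genotype cannot be told apart. In 16 members every ATF4 BKO value lay below both WT values in log2 CPM, beside 10.6% of all genes, and 14 of these are of the large subunit and 2 of the small (Mrps22 and Mrps31). In 0 members did every ATF4 BKO value lie above both, beside 8.98% of all genes. In TPM, 60 of 78 members had every ATF4 BKO value below both WT values (40 large and 20 small), beside 24.9% of all genes, and 77 had a lower mean.

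**Figure D3:**
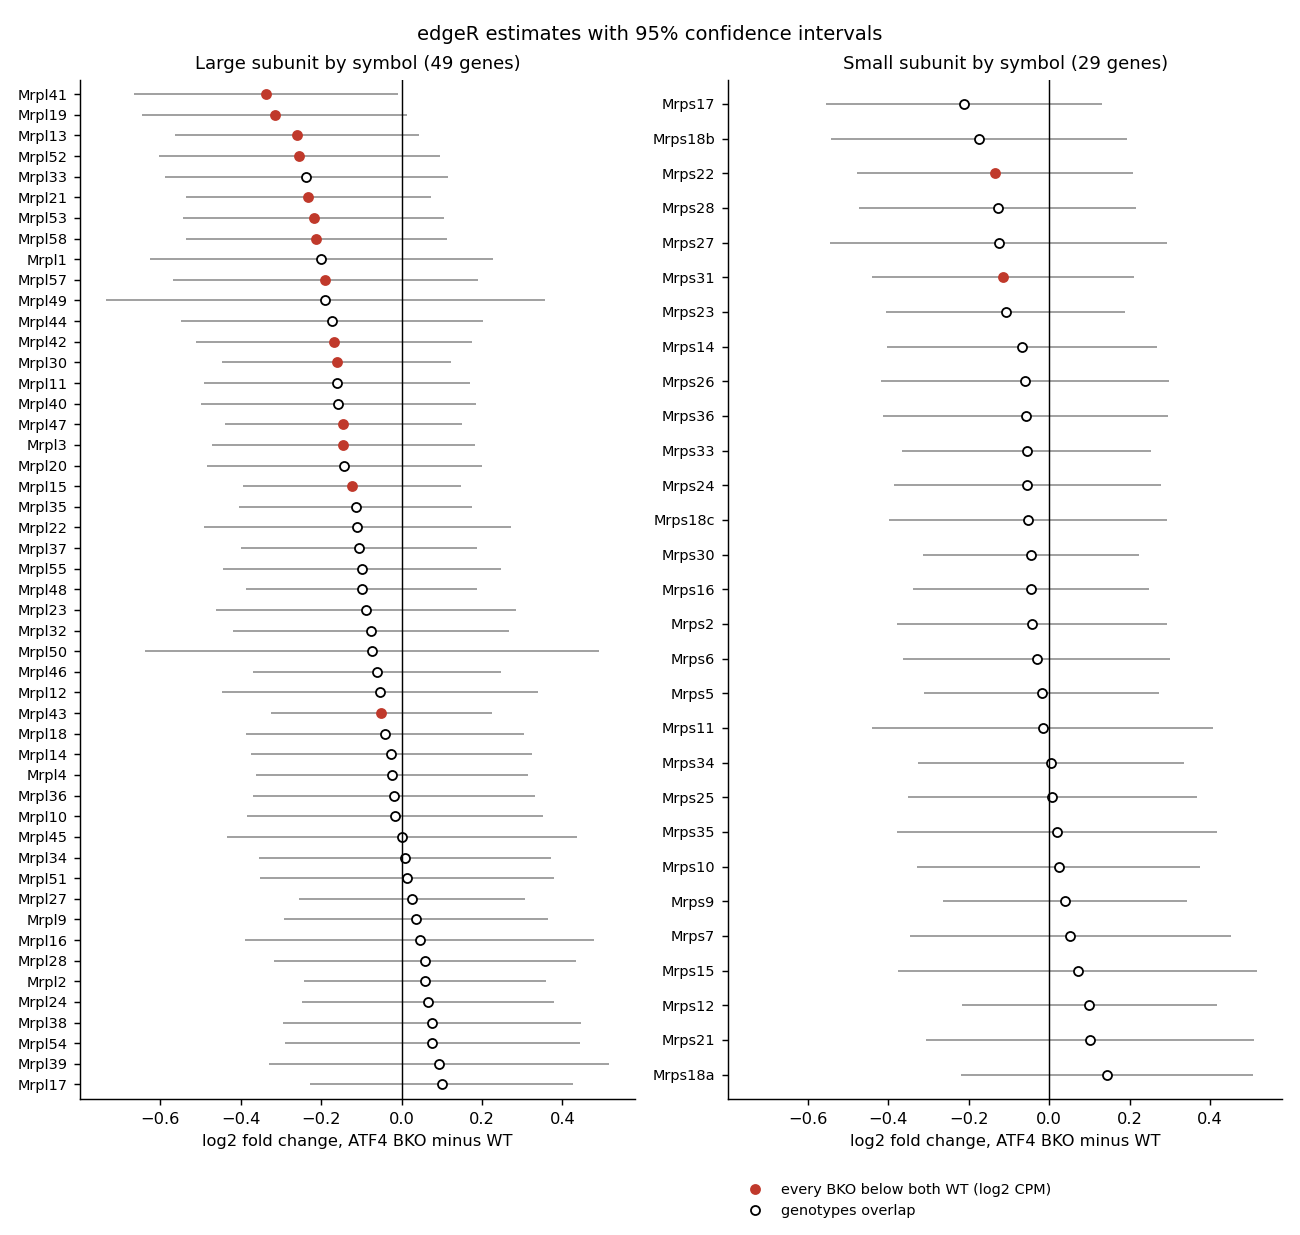
log2 fold change (ATF4 BKO minus WT, edgeR on TMM-normalized counts) of each member with its 95% confidence interval, sorted within subunit by symbol. Filled points mark the 16 members whose 3 ATF4 BKO values all lay below both WT values, and the interval of Mrpl41 alone leaves out 0.

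The largest estimate was that of Mrpl41, a protein found only in mitochondrial ribosomes, whose gene lies on chromosome 2 from 24974117 to 24975098 (GRCm38, minus strand). Its level was 41.7, 44.7 and 42.1 TPM in ATF4 BKO and 61.8 and 58.3 TPM in WT mice. All ATF4 BKO values were below both WT values, and the log2 fold change was -0.34 ± 0.13 (SE; edgeR adjusted p = 0.911). Of its 31-base words, 21.1% also occur in transcripts of other genes, mostly in Gm6434. Mrpl19, a protein shared with bacterial ribosomes, had 24.2, 26.0 and 21.2 TPM in ATF4 BKO and 40.4 and 40.4 TPM in WT mice, which is 58.9% of WT, while its count-based log2 fold change was -0.32 ± 0.13 (SE). It was the one member whose mean transcript length differed by over 10% between genotypes (ratio 1.18). Mrpl19 shares 37.9% of its words with other genes, mostly with its neighbour Gcfc2.

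Others among the 10 largest estimates were lower in ATF4 BKO mice by smaller amounts. Mrpl13, of the ribosome's core, had 83.1, 83.7 and 90.1 TPM against 116 and 119 TPM, with a log2 fold change of -0.26. For Mrpl52, specific to mitochondria, levels were 75.3, 99.5 and 73.8 TPM against 113 and 104 TPM (log2 fold change -0.25). Mrpl33 had 133, 147 and 157 TPM against 205 and 187 TPM (log2 fold change -0.24). These 3 did not overlap between genotypes in TPM, but Mrpl33 did in CPM, where WT 2 (40.9 CPM) fell below ATF4 BKO 3 (41.8 CPM). In 24.9% of all genes every ATF4 BKO value in TPM lay below both WT values. All 10 members were chosen for the size of their estimates in these data, which favours such separation.

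Mrpl21 had 71.2, 79.2 and 75.1 TPM against 105 and 94.2 TPM (log2 fold change -0.23). Mrpl53, 84.4% of whose words also occur in other genes and whose counts are therefore uncertain, had 84.4, 93.2 and 97.0 TPM against 126 and 115 TPM (log2 fold change -0.22). Mrpl58, also known as ICT1, a peptidyl-tRNA hydrolase that frees stalled chains, had 87.1, 101 and 94.1 TPM against 127 and 117 TPM (log2 fold change -0.21). In each of these 3 the highest ATF4 BKO mouse was below the lower WT mouse in TPM, beside 24.9% of all genes. Mrps17, the one small subunit protein among the 10, had 71.0, 73.6 and 65.1 TPM against 97.4 and 93.9 TPM (log2 fold change -0.21). Mrpl1, which forms a mobile arm at the site where spent tRNAs leave, had 13.5, 11.3 and 12.1 TPM against 14.7 and 18.3 TPM (log2 fold change -0.20). Both overlapped between genotypes in CPM and not in TPM.

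The most abundant members differed among themselves. Mrps21 had 430, 331 and 476 TPM in ATF4 BKO and 401 and 458 TPM in WT mice, with the lowest and the highest value both in ATF4 BKO (log2 fold change 0.10 ± 0.17, SE). Mrpl42 had 339, 321 and 354 TPM against 434 and 439 TPM (log2 fold change -0.17 ± 0.14, SE). Mrpl30 had 279, 285 and 276 TPM against 342 and 354 TPM (log2 fold change -0.16 ± 0.12, SE). The latter pair did not overlap between genotypes in CPM or TPM. Mrpl20 (253, 261 and 266 against 344 and 298 TPM) and Mrps36 (299, 289 and 329 against 351 and 381 TPM) were apart in TPM and overlapped in CPM. Of the least abundant, Mrps30 had 17.2, 19.4 and 18.5 TPM against 20.8 and 22.2 TPM, and Mrps10 had 19.3, 19.8 and 18.7 TPM against 22.9 and 21.5 TPM, with log2 fold changes of -0.045 and 0.024.

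By role, estimates on the large subunit were small and of either sign. The stalk, which recruits translation factors, is built of Mrpl12 on Mrpl10, with Mrpl11 at its base. Mrpl12 had 192, 189 and 220 TPM against 252 and 226 TPM, and the log2 fold changes of Mrpl12, Mrpl10 and Mrpl11 were -0.054, -0.016 and -0.16. Around the catalytic core, where peptide bonds are formed, Mrpl3 had 83.1, 74.5 and 81.0 TPM against 98.9 and 98.5 TPM (log2 fold change -0.14) and did not overlap between genotypes. Its fellows Mrpl2, Mrpl16 and Mrpl27 had log2 fold changes of 0.058, 0.045 and 0.026, and each overlapped in CPM. In TPM, Mrpl16 overlapped too, but Mrpl2 did not (83.8, 91.7 and 95.7 against 98.6 and 98.0 TPM). On transcripts annotated as protein coding, Mrpl27 had 75.2, 78.4 and 78.1 TPM against 79.3 and 84.7 TPM. At the exit of the peptide tunnel, Mrpl45, which sits against the inner membrane, had a log2 fold change of 0.00037, with Mrpl23 at -0.089 and Mrpl24 at 0.067. Mrpl44, which carries a ribonuclease III-like fold, had 33.5, 32.1 and 38.4 TPM against 43.2 and 45.6 TPM, with a log2 fold change of -0.17.

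On the small subunit, Mrps12 lines the decoding centre, and its levels of 63.9, 61.3 and 67.3 TPM in ATF4 BKO and 62.0 and 65.2 TPM in WT mice overlapped even in TPM (log2 fold change 0.10). Of Mrps7, Mrps11, Mrps2 and Mrps28, which have counterparts in bacteria, the log2 fold changes were 0.053, -0.016, -0.042 and -0.13. Mrps22 and Mrps34 are specific to mitochondria and are both known from human mitochondrial disease. Mrps22 had 37.0, 34.5 and 37.4 TPM against 43.6 and 47.1 TPM (log2 fold change -0.13) without overlap. Mrps34 stood at 53.3, 58.2 and 58.4 TPM against 67.2 and 60.0 TPM (log2 fold change 0.0050), and 73.8% of its words also occur in other genes.

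The paralogues Mrps18a, Mrps18b and Mrps18c take separate places in the ribosome and did not share a direction. Mrps18a had 102, 106 and 118 TPM in ATF4 BKO and 99.9 and 127 TPM in WT mice, with the highest estimate of all members (0.14 ± 0.15, SE). Mrps18b had 87.4, 125 and 99.5 TPM against 138 and 123 TPM (log2 fold change -0.18 ± 0.15, SE). Mrps18c had 62.8, 60.7 and 62.6 TPM against 71.2 and 73.4 TPM (log2 fold change -0.052 ± 0.14, SE). The first and the second overlapped between genotypes on both scales. Grouped by origin rather than by subunit, the median log2 fold change was -0.099 over the 31 proteins specific to mitochondria and -0.043 over the 46 shared with bacteria. Every ATF4 BKO value lay below both WT values in log2 CPM in 9 and 7 of them, beside 10.6% of all genes. The difference between these groups was not tested.

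The lean in the estimates moved with single mice, most with ATF4 BKO 2. ATF4 BKO 2 had the lowest CPM of the 5 mice in 59 of 78 members and the highest in 0. The median deviation of a member from its mean over the 5 mice was 0.025, -0.17 and 0.037 log2 units in ATF4 BKO 1 to 3, and 0.074 and 0.0045 in WT 1 and 2. WT 1 was the highest mouse in 32 members and ATF4 BKO 3 in 27. The largest gaps were in Mrpl50, with 67.2, 41.3 and 66.4 CPM in ATF4 BKO and 59.2 and 63.6 CPM in WT mice, and in Mrpl49, with 27.8, 17.9 and 28.3 CPM against 29.1 and 27.2 CPM. Without ATF4 BKO 2 the median log2 fold change of the members was 0.013, with 35 of 78 below 0, 12 of 78 with both remaining ATF4 BKO values below WT (19.9% of all genes) and 21 with both above (19.6% of all genes). Without WT 1 the median was -0.014, with 45 of 78 below 0. The deposited file names carry the prefix S1 or S2, which the labels do not explain. The members' median difference in log2 CPM was -0.15 within S1 and 0.057 within S2, beside -0.0040 and -0.032 over all genes. The median was -0.090 without the library with Xist counts, ATF4 BKO 1, and -0.11 without the library with the muscle signal, WT 2. The summed TPM in ATF4 BKO was 82.7 to 85.5% of WT when each library was left out in turn.

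**Figure D4:**
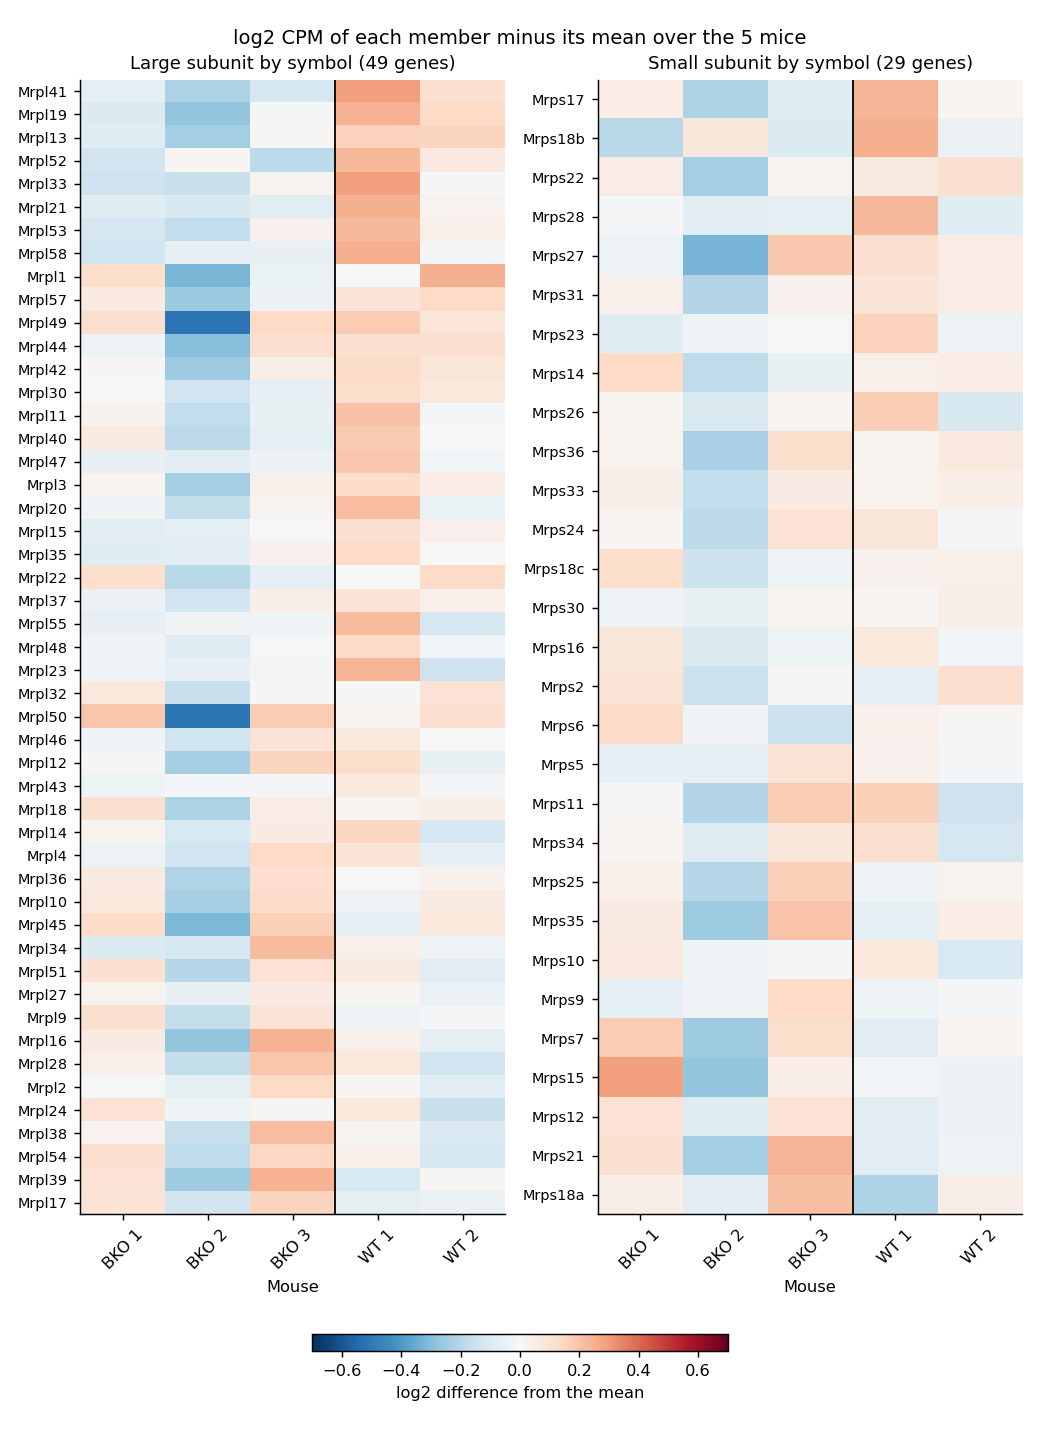
log2 CPM of each member minus its mean over the 5 mice, sorted by log2 fold change within subunit by symbol (blue, below the mean; red, above it). The column of ATF4 BKO 2 is the lowest of the 5 in 59 of 78 members, and it is below the other ATF4 BKO mice in rows at the bottom of each panel as well as at the top.

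Other genes of mitochondrial translation are given for comparison, and their difference from the members was not tested. Of 5 ribosomal proteins with other names, 3 were below 0 (median -0.0027): Dap3 had 91.0, 90.9 and 98.9 TPM in ATF4 BKO and 99.4 and 95.5 TPM in WT mice, and Ptcd3 had 90.2, 79.6 and 86.3 TPM against 91.9 and 108 TPM. Of 25 genes for ribosome assembly, 15 were below 0 (median -0.045), beside 48.8% of all genes. In 5 of them every ATF4 BKO value lay below both WT values, beside 10.6% of all genes. For this list 0 were called by edgeR or DESeq2, with 1 at an unadjusted p under 0.05 in edgeR, beside 5.23% of all genes. The lowest p among them was that of Fastkd2, an RNA-binding protein that acts on the large subunit's RNA, with 30.8, 25.6 and 31.04 TPM against 41.8 and 36.8 TPM (log2 fold change -0.38 ± 0.12, SE; edgeR adjusted p = 0.911, DESeq2 adjusted p = 0.598). Of 10 translation factors, 9 were below 0 (median -0.026), beside 48.8% of all genes. In 3 of them every ATF4 BKO value lay below both WT values in log2 CPM, beside 10.6% of all genes. None of the 10 was called by edgeR or DESeq2 (0.00608% and 0.736% of all genes). In edgeR 0 had an unadjusted p under 0.05, beside 5.23% of all genes. The elongation factor Tufm, at 261, 250 and 308 TPM against 305 and 303 TPM, had a log2 fold change of 0.051.

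The templates of the mitochondrial ribosome stood on the other side of 0. For each of the 13 messenger RNAs of the mitochondrial genome the 3 ATF4 BKO values exceeded both WT values in log2 CPM, beside 8.98% of all genes. Their median log2 fold change was 0.52. At an unadjusted p under 0.05 edgeR listed 7, beside 5.23% of all genes, and it called 0. DESeq2 called 2 of them, beside 0.736% of all genes. These were mt-Co2 (log2 fold change 0.94 ± 0.28, SE; DESeq2 adjusted p = 0.0343) and mt-Atp6 (0.92 ± 0.26, SE; DESeq2 adjusted p = 0.0193). The 82 cytosolic ribosomal protein genes tested had estimates that were all below 0 (median -0.24), beside 48.8% of all genes. Among the 82, 4 had every ATF4 BKO value below both WT values, beside 10.6% of all genes, and DESeq2 called 1, beside 0.736%. The lowest estimate, -4.32, lay far below the first quartile (-0.31), while the third quartile was -0.16. The part of the muscle signal in the values of these 82 genes was not tested. Their summed TPM overlapped between genotypes, with 32680, 45380 and 33610 in ATF4 BKO and 53740 and 42660 in WT mice. The difference between these lists and the members was not tested. Among markers of other cells, the estimates of all 7 for macrophages, 5 for endothelium and 4 for B cells were above 0 (medians 0.44, 0.33 and 0.48), with no call by edgeR or DESeq2, and at an unadjusted p under 0.05 edgeR listed 2 for endothelium and 0 for the others. Their mean log2 CPM was 4.71 to 6.32 in ATF4 BKO and 3.93 and 5.79 in WT mice for macrophages, 7.08 to 7.42 and 6.82 and 7.05 for endothelium, and -0.56 to 0.29 and -0.94 and -0.30 for B cells. Estimates of the 7 brown adipocyte markers had a median of 0.17, 3 of 4 white adipocyte markers tested were below 0 (median -0.77), and all 16 for skeletal muscle were below 0 (median -6.44, 7 called by DESeq2 and 0 by edgeR). With the muscle markers' mean as a covariate the members' median was -0.26, and without it -0.057. That mean was -1.65 to 0.57 log2 CPM in ATF4 BKO and 2.30 and 6.43 in WT mice, without overlap. Its part and that of genotype therefore cannot be told apart, and -0.26 is not a value corrected for muscle. The part of the other cells in the members' values was not tested.

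The members are spread over 17 chromosomes. The nearest to Atf4 on its chromosome is Mrpl13, 24.7 Mb away, and the nearest to Ucp1, whose promoter drives the Cre, is Mrpl34 at 11.8 Mb, so no member is close to the edited gene or to the native Ucp1 locus. The Cre is a transgene, and the place where it was inserted was not examined. Head-to-head placement was common. In 18 members (23.1%) the start lay within 1000 bases of the start of a gene on the opposite strand, beside 9.41% of the 14237 protein-coding genes tested. Examples are Mrps12 with Sars2, the mitochondrial seryl-tRNA synthetase (172 bases apart), Mrps27 with Ptcd2 (81 bases) and Mrpl49 with Fau (59 bases). The median log2 fold change of these 18 was -0.075.

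Promoters from RefSeq (250 bases before to 50 after the start, GRCm38.p6) were found for 69 of the 78 members, in 75 entries. They were searched on both strands for 4 short sequences. GCGCATGCG, the core of the site of NRF1, a regulator of nuclear genes for mitochondria, was in 9.33% of members' promoters, beside 1.75% of all promoters and 3.11% of those of genes tested. CCGGAAG, bound by ETS factors such as GABPA, was in 34.7%, beside 8.86% and 15.5%. AAGATGGCG, bound by YY1, was in 10.7%, beside 1.40% and 2.56%. TGATGCAA, an amino acid response element of the kind bound by ATF4 with C/EBP proteins, was in 0 of the members' promoters, beside 0.895% and 0.631%. With shares this low, 75 promoters are too few to tell 0 from the share over all promoters. Matches to all 4 sequences are of letters in a fixed window and were not tested as sites. In all, 36 members held at least 1 of the first 3 sequences.

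The places of the NRF1 matches among the members are shown here to let the flanks be compared. Where matches on both strands overlap at 1 place, as they do once each in Mrpl9, Mrpl32 and Mrpl39, the place is printed once. Each is read along the strand on which the motif lies, with the motif in capitals and 10 bases on either side.
Mrpl9 (chr3:94443298-94443326, plus): aggcgcagctGCGCATGCGcggggtcctt
Mrpl10 (chr11:97041437-97041465, minus): gggccgctatGCGCATGCGtggagctggg
Mrpl17 (chr7:105811080-105811108, minus): ccgagttactGCGCATGCGtcctctgaga
Mrpl22 (chr11:58171621-58171649, plus): gcctcggactGCGCATGCGtatagtcagc
Mrpl32 (chr13:14613042-14613070, plus): cgcgggctgaGCGCATGCGttaagtccgc
Mrpl32 (chr13:14613106-14613134, minus): tttgacccttGCGCATGCGcaagaggggc
Mrpl39 (chr16:84735351-84735379, minus): aaggagaggcGCGCATGCGcccccgcgtg
Mrps18b (chr17:35916646-35916674, plus): tgctcccagtGCGCATGCGtcgggccgtt
Of the 7 genes with a match, 6 belong to the large subunit. Their log2 fold changes ran on either side of 0, from -0.18 (Mrps18b) to 0.099 (Mrpl17).

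YY1 matches are shown for a second reason, which is where they lie. The motif holds an ATG, and in 3 of the 7 matches printed here (Mrpl35, Mrps18a and Mrps27) that ATG is an annotated start codon of the member itself. The match of Mrps24 lies at the edge of its window and is not printed.
Mrpl35 (chr6:71823743-71823771, minus): ggcaggctgcAAGATGGCGgcttccatct
Mrpl36 (chr13:73330968-73330996, minus): gccaggaagaAAGATGGCGtaaggtcacg
Mrpl37 (chr4:107066822-107066850, minus): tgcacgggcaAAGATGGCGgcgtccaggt
Mrpl42 (chr10:95501904-95501932, minus): agattgaagcAAGATGGCGagcgcgcggt
Mrps11 (chr7:78783013-78783041, minus): ggaagacagaAAGATGGCGgcgcccgtag
Mrps18a (chr17:46111005-46111033, plus): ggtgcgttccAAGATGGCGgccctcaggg
Mrps27 (chr13:99344790-99344818, plus): ggtgcgctccAAGATGGCGgctcccatgg
These include the member with the highest estimate, Mrps18a, and 1 of the most abundant, Mrpl42.

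Longer stretches are given for the members with the lowest and the highest log2 fold change and for Mrpl22, which holds both an NRF1 and an ETS match. Each is the 120 bases that end before the more upstream of the RefSeq and GENCODE starts, read along the gene, with matches in capitals.
Mrpl41 (chr2:24975099-24975218, minus): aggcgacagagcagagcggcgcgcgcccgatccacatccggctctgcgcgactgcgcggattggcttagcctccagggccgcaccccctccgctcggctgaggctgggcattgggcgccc
Mrps18a (chr17:46110866-46110985, plus): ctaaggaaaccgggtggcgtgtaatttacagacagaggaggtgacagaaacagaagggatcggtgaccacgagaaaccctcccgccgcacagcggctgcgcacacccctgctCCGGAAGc
Mrpl22 (chr11:58171541-58171660, plus): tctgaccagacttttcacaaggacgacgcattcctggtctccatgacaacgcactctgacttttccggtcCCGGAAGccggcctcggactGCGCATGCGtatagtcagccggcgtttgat
Mrpl41 has no match in this stretch, Mrps18a has an ETS match next to its GENCODE start, and in Mrpl22 the ETS and NRF1 matches lie close together.

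The counts behind a member do not all stand for messenger RNA annotated as coding. Transcripts annotated as protein coding held 73.4, 72.5 and 73.1% of the members' TPM in ATF4 BKO and 73.2 and 72.8% in WT mice, so this share was the same in both genotypes to within 1 percentage point. For 45 members the share was over 90%, but for 18 it was under 50%. In Mrps16, 97.5 to 98.2% of the TPM was assigned to ENSMUST00000224286.1, annotated as a processed transcript without a coding frame. In Mrps14, 97.2 to 98.3% fell on ENSMUST00000078878.13, annotated as a target of nonsense-mediated decay. Mrpl57, Mrps24 and Mrps26 were each assigned for over 94% in every mouse to a transcript annotated as a retained intron. Transcripts of 1 gene share most of their sequence, and how the counter divides reads between them was not tested.

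The comparison between genotypes came out alike on coding transcripts alone. These summed to 5063, 5045 and 5373 TPM in ATF4 BKO and to 6147 and 6077 TPM in WT mice, or 84.4% of WT, and in 55 members every ATF4 BKO value lay below both WT values, beside 28.2% of the 14203 tested genes with coding transcripts. The leading transcript of a gene was the same in all 5 libraries for 71 members. In Mrpl19 the single coding transcript had 5.59, 5.39 and 6.36 TPM against 7.89 and 7.51 TPM, while its short processed transcript, ENSMUST00000148025.1, had 15.4, 14.5 and 11.4 TPM against 25.6 and 23.8 TPM. The difference in that gene's TPM therefore lay mostly in a transcript that is not annotated as coding.

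**Figure D5:**
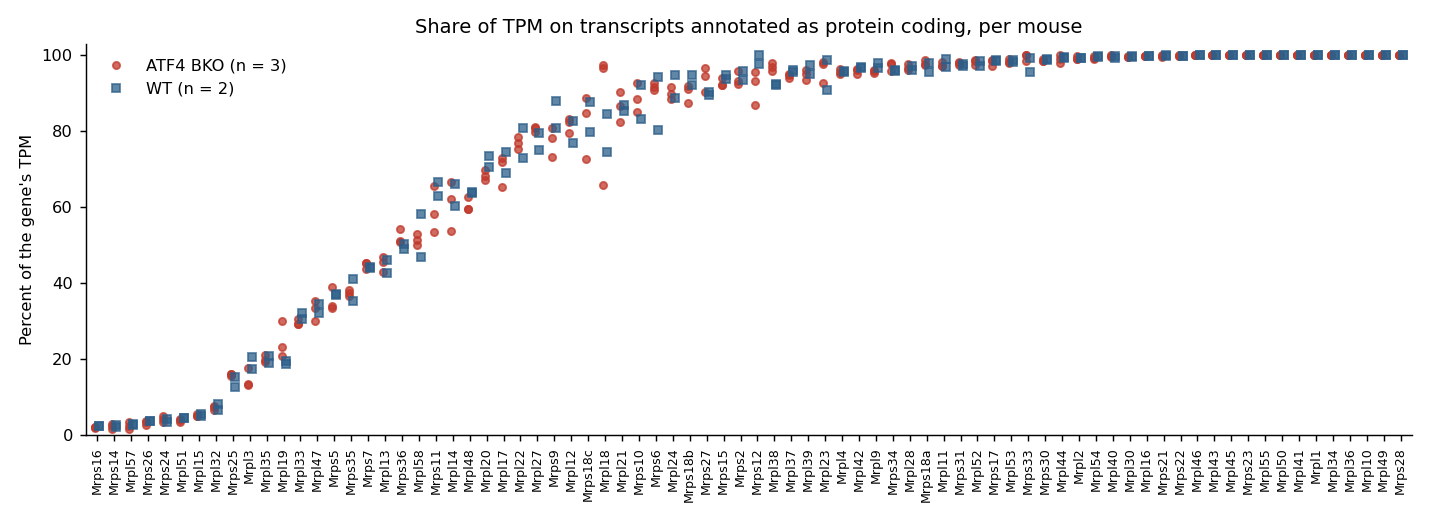
Percent of each member's TPM on transcripts annotated as protein coding, in each of 3 ATF4 BKO (circles) and 2 WT mice (squares), sorted by mean share. The genotypes lie close together in most members, from 2.2% in Mrps16 to 100% at the right, with 18 members under 50%.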

How the data were processed

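Stranded mRNA libraries of BAT were quantified by the authors with Kallisto (version 0.45.0, per the submitters' processing notes, which name mm10), and they deposited estimated counts and TPM per transcript for each sample without pooling. The transcript annotation is not given in the sources used here. Estimated counts and TPM were summed per gene with GENCODE M21 (GRCm38); 138191 of 141450 transcripts matched, and unmatched ones held 1.16 to 1.29% of counts. Rounded sums were fitted across all genes with edgeR 4.0.16 in R 4.3.3 (TMM, at least 10 counts in at least 2 libraries, quasi-likelihood test with genotype alone, Benjamini-Hochberg adjustment, threshold 0.05), with DESeq2 1.42.0 and limma 3.58.1 (log2 of TPM plus 1 or 0.1) as alternatives. Tests were tried first on simulated data with changes far larger than those of the members. That trial does not show how they perform on differences of the size seen here. Total counts of 24698337 to 32452751 per library and 394 or more per member leave counting error small beside the spread between mice. Every pair of libraries differed by more than sampling noise (lowest chi-square divided by its degrees of freedom, 49.9). The labels number the samples without saying that each is a separate animal, so p-values measure the spread between these samples. Shared sequence was measured as the share of a gene's 31-base words found in transcripts of other genes. Named members were the 10 with the largest log2 fold change, the 5 highest and 3 lowest in TPM, and those with a known role; Mrpl49, Mrpl50, Mrps15, Mrps31, and the members named for their promoter or transcripts were chosen after their values were seen. The members and lists were chosen with earlier results of these data known. The study's other workflow, with an aligner, was not analysed here.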

Additional observations from a re-analysis of the deposited data

How the results depend on the processing

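No member was called by edgeR, DESeq2 or limma under any alternative or with any library left out, and the large subunit had the lower median in each. The difference of the medians (large minus small) was -0.054 and ran from -0.13 with the muscle covariate to -0.027 without ATF4 BKO 1. These fits share the same libraries and are not replicates. The spread between mice was 0.074 log2 units for this difference and 0.12 for the members' median, both larger than the values (-0.054 and -0.057). With 3 and 2 mice, the median half-width of a member's 95% interval was 0.34 log2 units, so that smaller differences could not be resolved. The intervals used 6.06 degrees of freedom, of which 3 were residual and 3.06 were borrowed by edgeR across genes. Counting error is small at 394 or more counts. Members that share words with other genes depend on how the counter divided those reads.

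Scaling moved the size of the values. The median log2 fold change of the members was -0.17 with library totals alone (all genes -0.099), -0.25 in limma with either pseudocount (all genes -0.12 and -0.17) and -0.26 with the muscle covariate. Relative to all genes, the members' median was -0.065 in edgeR with TMM, -0.068 with library totals, -0.13 and -0.086 in limma and -0.27 with the muscle covariate. The muscle covariate did not overlap between genotypes, so values from that fit cannot separate its part from that of genotype. For the large subunit the median was -0.28 and -0.29 in limma and -0.29 with the muscle covariate. That of the small subunit was -0.15 with library totals, -0.22 and -0.23 in limma and -0.16 with the muscle covariate. Members that did not overlap between genotypes numbered 10 with DESeq2 or its size factors (19.6% of all genes), 45 with library totals (23.4%) and 60 in limma with either pseudocount (27.9%), against 16 in edgeR with TMM (19.6%). Without the 29 members that share over 10% of their words, 34 of 49 were below 0 (48.8% of all genes) and 10 did not overlap (19.6%). The summed TPM was 94.3% of WT when the muscle markers were also left out beside the mitochondrial genome, and 84.4% on coding transcripts alone, alternatives chosen after seeing the data, as was leaving out libraries for this sum. By place in the ribosome the mean ratio of large to small was 2.16 in ATF4 BKO and 2.27 in WT mice.

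Over all genes, the number called was 121 with DESeq2, 8 with no filter, 0 and 2 in limma, 0 with the replicate block, 0 with the file-name prefix as a block and 212 with the muscle covariate, against 1 in edgeR with TMM. Atf4 was called with DESeq2 (log2 fold change -2.83) and with no filter (-2.82). With each library left out in turn, the number of genes called ran from 0 to 23, the members below 0 from 35 to 68, the members that did not overlap from 17 to 34, the members' median from -0.11 to 0.013, and that of the small subunit from -0.079 to 0.032. The highest values of both medians came without ATF4 BKO 2. Leaving out ATF4 BKO 1 or 3 gave 26 members that did not overlap (32.8 and 29.4% of all genes), ATF4 BKO 2 gave 33 (39.5%), WT 1 gave 17 (37.9%) and WT 2 gave 34 (57.8%). The cause was not tested.

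The replicate numbers are shared by both genotypes, but nothing in the labels ties the samples together, and deviations from the group means correlated at 0.047 and 0.20 in the 2 pairs. With the replicate block the members' median was -0.10, with 69 of 78 below 0 and 0 called.

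Estimates of named members changed sign in 20 of 38, none with a size above 0.14 in the main setting. The log2 fold changes were, with library totals alone, Mrps21 -0.013, Mrps10 -0.083, Mrpl2 -0.051, Mrpl16 -0.069, Mrpl27 -0.082, Mrpl45 -0.12, Mrpl24 -0.041, Mrps12 -0.010, Mrps7 -0.062 and Mrps34 -0.10. In limma with pseudocounts of 1 and 0.1 they were Mrps21 -0.071 and -0.071, Mrps10 -0.19 and -0.20, Mrpl2 -0.12 and -0.12, Mrpl16 -0.15 and -0.15, Mrpl27 -0.14 and -0.15, Mrpl45 -0.22 and -0.22, Mrpl24 -0.11 and -0.11, Mrps7 -0.15 and -0.15, Mrps34 -0.17 and -0.17 (limma), and Mrps18a -0.058 and -0.058. With the replicate block they were Mrps21 -0.014, Mrpl2 -0.0037, Mrpl16 -0.087, Mrpl45 -0.10, Mrps7 -0.011 and Mrps34 -0.031. With the muscle covariate they were Mrps21 -0.12, Mrps10 -0.16, Mrpl2 -0.12, Mrpl16 -0.33, Mrpl27 -0.088, Mrpl45 -0.14, Mrpl24 -0.18, Mrps7 -0.078, Mrps2 0.037 and Mrps34 -0.29. Length-scaled counts gave Mrps10 -0.022, Mrpl45 -0.026 and Mrps11 0.021, the file-name prefix as a block gave Mrpl10 0.0078, and no filter gave Mrpl45 -0.0030. With each library left out in turn the ranges were Mrpl10 -0.084 to 0.11, Mrpl12 -0.15 to 0.059, Mrpl16 -0.076 to 0.19, Mrpl2 -0.0017 to 0.12, Mrpl20 -0.28 to 0.0084, Mrpl23 -0.28 to 0.13, Mrpl24 -0.056 to 0.20, Mrpl27 -0.016 to 0.074, Mrpl45 -0.084 to 0.16, Mrps10 -0.077 to 0.13, Mrps11 -0.18 to 0.16, Mrps18c -0.13 to 0.027, Mrps2 -0.12 to 0.043, Mrps21 -0.0014 to 0.24, Mrps28 -0.29 to 0.048, Mrps34 -0.12 to 0.14, Mrps36 -0.13 to 0.053 and Mrps7 -0.027 to 0.19. The cause of these changes of sign was not tested.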
